A study of Mus musculus with 2 samples.

Results

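The cells described here are the leukemia cells with the highest share of transcripts from Itga4 and Itgb1, the genes for the α4 and β1 chains of the integrin VLA-4. Barcodes with 3000 or more UMIs (distinct captured transcripts) and 500 or more genes were kept unless mitochondrial transcripts passed 10%, which left 12457 of 15085 barcodes. Kept cells of both libraries were ranked together by the share of their UMIs from Itga4 plus Itgb1. VLA-4 high cells are the 1245 highest among the cells with at least 1 UMI of each gene, a number set to 10% of kept cells. Taking the top 10% of all kept cells first and then asking for both genes left 1050 of them. The other 11212 kept cells are called remaining cells. Because these genes chose the cells, their levels in VLA-4 high cells are a description and not a result.

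The cells came from mice transplanted with AE9a leukemia, which is driven by a truncated AML1-ETO fusion and marked with GFP. The leukemia cells carried floxed Usp18 together with UBCER-Cre, which is a tamoxifen-activated recombinase under a ubiquitin promoter that is active in most tissues. C57BL/6 mice of 8 to 12 weeks were used, and the sick recipients received 2 injections of oil in the control group or of tamoxifen in the deletion group. On day 3 from the first injection GFP+ Lin- c-Kit+ spleen cells were sorted, and a pool from 3 mice gave the 1 library of each group. The labels disagree on the alleles, while the series title and the study's data statement describe this set as a homozygous depletion of Usp18. The genotype labels give Usp18f/f for oil and Usp18delta/delta for tamoxifen, whereas the treatment protocol gives Usp18+/f and a heterozygous depletion, so the groups are named by injection.

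VLA-4 is an adhesion receptor of blood stem and progenitor cells. It binds VCAM-1 on stromal and endothelial cells and fibronectin in the matrix, and this contact holds normal and leukemic progenitors in the marrow niche. Inside the cell, talin and kindlin bind the β chain and switch integrins to the active form, and vinculin, paxillin and other adaptors connect them to actin.

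Each group has 1 library and hence no replicates, which is why ratios below come without p-values. Levels are CPM, the UMIs of a gene scaled to 1000000 UMIs of a set of cells. Values in parentheses after a level, a log2 ratio or a share are 95% intervals that cover counting error alone. The library labelled oil held 70239576 UMIs in 7774 barcodes, of which 6330 were kept with a median of 9218 UMIs. The library labelled tamoxifen held 65028672 UMIs in 7311 barcodes, of which 6127 were kept with a median of 8544 UMIs. The libraries had 14 barcodes in common, 11 of them kept in both, and 5 VLA-4 high cells carried such a barcode. Usp18, the interferon-induced protease and targeted gene (chromosome 6, 121245906 to 121270917, GRCm38), went against the labels. In VLA-4 high cells it was at 7.64 CPM (5.57 to 10.2) with oil and at 21.5 CPM (17.5 to 26.1) with tamoxifen, and the remaining cells showed the same order with 5.32 and 14.8 CPM. A 3′ count does not show which exons a transcript holds.

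The markers of the sort were checked first. Kit, the stem cell factor receptor on which the cells were sorted, was at 201 CPM in the VLA-4 high cells of the library labelled oil and at 285 CPM in those labelled tamoxifen. At least 1 Kit UMI was found in 68.6% and 71.0% of them, against 66.9% and 69.8% of remaining cells. All 8 T cell markers and all 6 neutrophil markers were at 0 in VLA-4 high cells of both libraries. Summed B cell, NK cell and endothelial or stromal markers were at or below 0.626 CPM. Summed macrophage markers were at 8.49 CPM in VLA-4 high cells against 7.89 CPM in remaining cells with oil and at 11.3 against 7.93 CPM with tamoxifen, of which Cd68 gave 6.62 and 7.51 CPM in VLA-4 high cells. Cd34, a progenitor surface antigen, and Cxcr4, the receptor of the niche chemokine CXCL12, had no UMI in VLA-4 high cells, so each was under the floor of 3 counts, which is 0.509 CPM with oil and 0.626 CPM with tamoxifen. All cells belong to 1 sorted population, so the level that free RNA gives to a cell lacking a gene could not be measured.

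VLA-4 high cells were a slightly larger share of the library labelled oil. They were 676 of 6330 kept cells, 10.7% (9.93 to 11.5), with oil and 569 of 6127, 9.29% (8.57 to 10.0), with tamoxifen. The log2 ratio of the shares, tamoxifen over oil, was -0.20 (-0.36 to -0.04). Both genes had a UMI in 57.5% and 52.9% of kept cells. Both libraries had 3 pooled mice, so a difference of this size cannot be told apart from one between pools.

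Few UMIs decided the ranking. The median VLA-4 high cell held 4 Itga4 and 3 Itgb1 UMIs in either library. The last cell inside the cut had 674.84 CPM from 7 Itga4 and 5 Itgb1 UMIs of 17782, and the first outside had 674.54 CPM from 3 and 1 of 5930. Another 231 kept cells lay past the lowest VLA-4 high cell but lacked a UMI of 1 of the genes. Itga4 (chromosome 2, 79255426 to 79333123, GRCm38) was at 501 CPM in VLA-4 high and 164 CPM in remaining cells of the library labelled oil, and at 487 and 162 CPM in the library labelled tamoxifen. Itgb1 (chromosome 8, 128685654 to 128733200, GRCm38) was at 383 and 162 CPM with oil and at 380 and 154 CPM with tamoxifen. In the plot of the ranking share, a peak of cells at or near 0 is followed by a broad distribution whose upper tail holds the VLA-4 high cells, and no gap sets them apart.

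**Figure D1:**
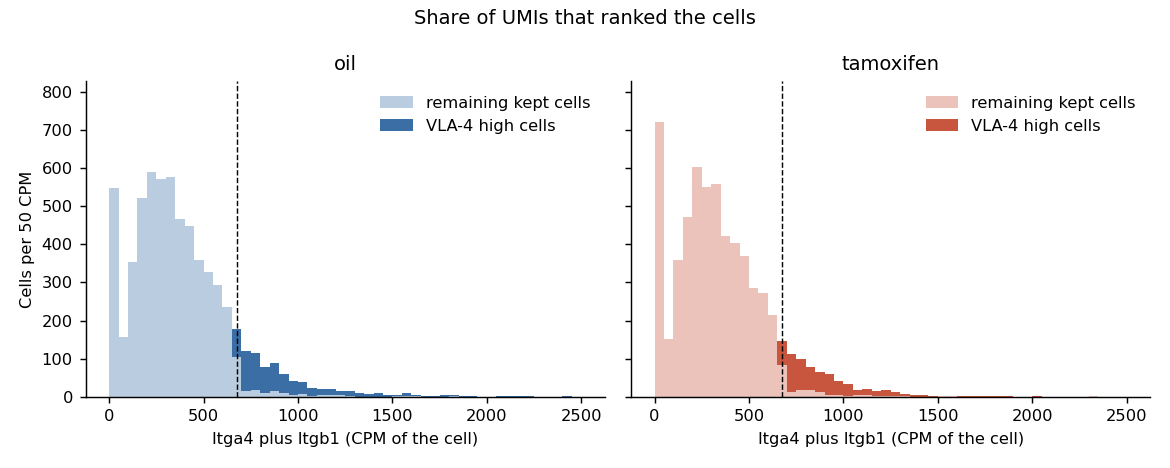
Number of kept cells (vertical axis, cells per 50 CPM) by the CPM from Itga4 plus Itgb1 in each cell (horizontal axis), for the libraries labelled oil and tamoxifen. Dark bars are VLA-4 high cells stacked on pale bars for remaining cells, the dashed line marks the lowest VLA-4 high cell at 674.84 CPM, and pale bars to its right are the 231 cells without a UMI of both genes.

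VLA-4 high cells had fewer UMIs than remaining cells, which moves together with every ratio that follows. The median was 7693 UMIs in VLA-4 high cells against 9555 in remaining cells of the library labelled oil, and 7332 against 8706 in the library labelled tamoxifen. After thinning each cell to 3000 UMIs, VLA-4 high cells held a median of 1471 and 1401 genes against 1409 and 1350 in remaining cells. Median mitochondrial shares were close, with 6.90% and 7.03% in VLA-4 high cells and 6.90% and 6.88% in remaining cells. Ribosomal protein genes took 21.8% and 26.6% of UMIs in the median VLA-4 high cell and 25.1% and 28.8% in the median remaining cell. List medians, calls and the leading genes are therefore given also against remaining cells weighted to the UMI totals of the VLA-4 high cells, called depth-weighted below.

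How far the cells differ in VLA-4 was measured apart from the choice of cells. The UMIs of each cell were divided at random into 2 sets, cells were chosen in set 1, and levels were taken from set 2. Itga4 in set 2 was 284 CPM in the chosen and 182 CPM in the other cells of the library labelled oil, a log2 ratio of 0.64 (0.54 to 0.74), and 267 against 180 CPM with tamoxifen, a ratio of 0.57 (0.45 to 0.69). Itgb1 in set 2 gave 0.28 (0.17 to 0.39) with oil and 0.35 (0.23 to 0.48) with tamoxifen. In set 1, which had chosen the cells, the same ratios were 1.68 and 1.67 for Itga4 and 1.59 and 1.68 for Itgb1. The chosen cells thus held more of both transcripts in UMIs that did not choose them, at a smaller ratio than in those that did.

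Cells chosen by 1 chain differed by small ratios in the other. Choice by few UMIs lowers such ratios, so how closely the chains go together in a cell cannot be read from them. In the 10% of cells chosen by Itga4 alone, Itgb1 was at 193 against 181 CPM with oil, a log2 ratio of 0.09 (-0.01 to 0.19), and at 181 against 172 CPM with tamoxifen, a ratio of 0.08 (-0.03 to 0.18). Both intervals held 0. In the 10% chosen by Itgb1 alone, Itga4 gave 0.24 (0.16 to 0.32) and 0.13 (0.04 to 0.22), and both intervals lay above 0. Cells were also grouped by their Itga4 UMIs among 3000 drawn UMIs, with Itgb1 taken over all UMIs. Itgb1 was at 181 CPM in cells without an Itga4 UMI and at 191 CPM (172 to 211) in cells with 3 or more with oil, and at 169 and 178 CPM (159 to 198) with tamoxifen. The mean depth of these groups was 10692 and 7789 UMIs with oil and 9904 and 8270 UMIs with tamoxifen. Of the 1245 VLA-4 high cells, 704 were also chosen by Itga4 alone and 568 by Itgb1 alone.

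**Figure D2:**
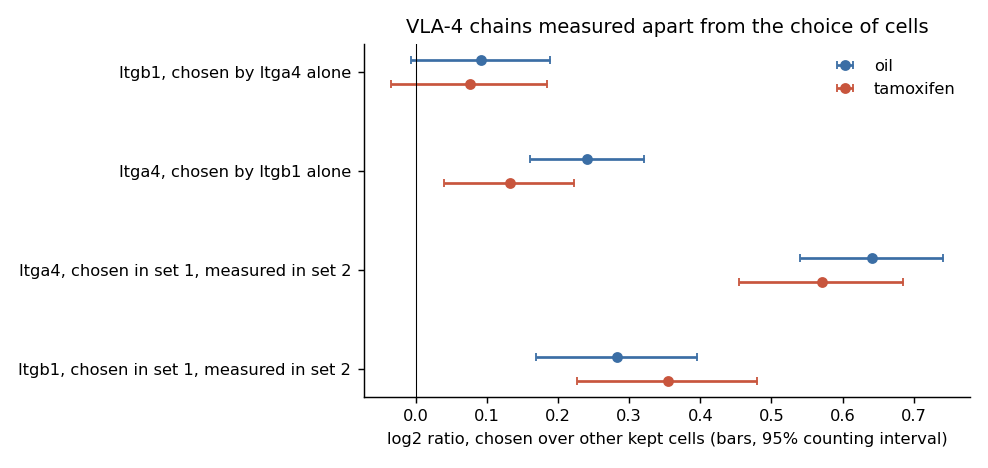
Log2 ratio of chosen over other kept cells (horizontal axis) for Itga4 and Itgb1 in UMIs or genes that did not choose the cells, with points for the libraries labelled oil and tamoxifen and bars for the 95% counting interval. The set 2 ratios of Itga4, 0.64 and 0.57, lie farthest from 0, and both intervals of Itgb1 in cells chosen by Itga4 hold 0.

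Other genes were compared between VLA-4 high and remaining cells of the same library. Of 5839 genes with at least 20 CPM over all kept cells, 271 (4.64%) were at least 1.3-fold higher in both libraries and 79 (1.35%) were at least 1.3-fold lower in both. No gene was past that fold in opposite directions, and 4855 had the same sign. The interval of each of these 271 and 79 genes lay on 1 side of 0 in both libraries. The fold and the minimum of 20 CPM left little room for another outcome, so this adds no support to the calls. The counts were much smaller under several other settings. When depth-weighted, 46 genes were higher and 9 lower, and 41 and 7 met the fold both ways. When cells were ranked after thinning to 3000 UMIs, 5 were higher and 1 lower. When cells were chosen and measured in separate UMI sets, 30 were higher and 21 lower. These settings also changed the cells, since 591 and 675 of the 1245 were shared with the main choice. The top 20% of cells gave 16 higher and 4 lower without any matching of depth. What lowered the counts was not tested. The split also moved with scaling. TMM scaling lowered every log2 ratio by 0.17 with oil and by 0.14 with tamoxifen and gave 57 higher and 356 lower. The median ratio over all 5839 genes was 0.08 in both libraries, and medians of gene lists are to be set against it. Counts of calls in a list are to be set against the shares over all genes, 4.64% higher and 1.35% lower. A count near those shares is not a result about the list.

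**Figure D3:**
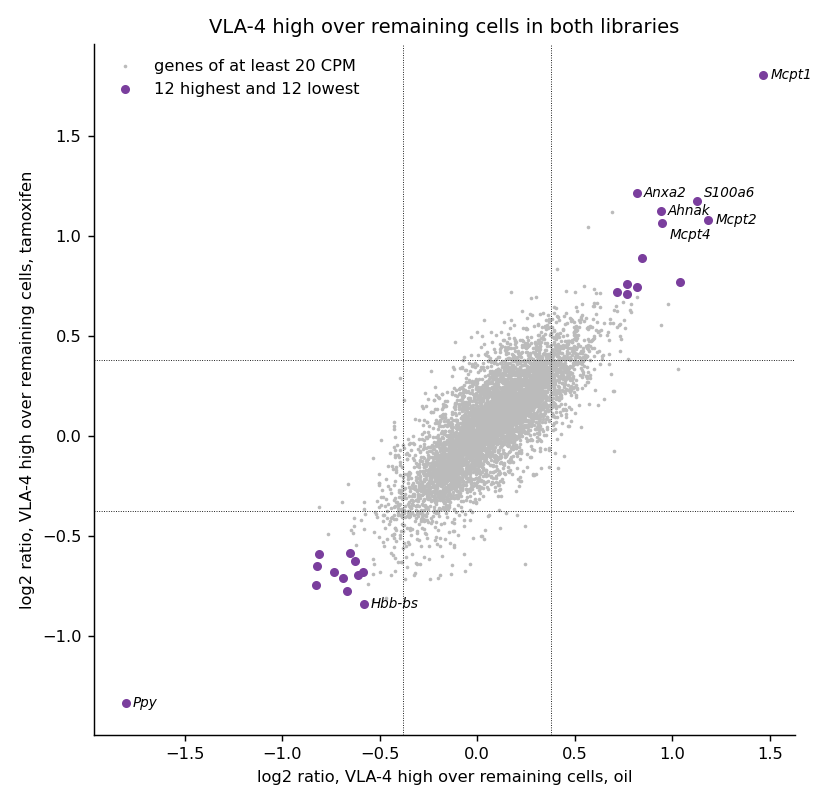
Log2 ratio of VLA-4 high over remaining cells in the library labelled oil (horizontal axis) and in the library labelled tamoxifen (vertical axis). Each grey point is 1 of 5839 genes, purple points are the 12 highest and 12 lowest by the smaller of their ratios, and dotted lines mark 1.3-fold. Mcpt1 at 1.46 and 1.80 and Ppy at -1.80 and -1.34 lie farthest out.

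Proteases of mast cell granules led the genes that were higher. Mcpt1, mast cell protease 1 (chromosome 14, 56017971 to 56020384, GRCm38), was at 488 CPM (471 to 507) in VLA-4 high cells and 177 CPM (174 to 180) in remaining cells of the library labelled oil. In the library labelled tamoxifen it was at 331 CPM (315 to 348) and 94.8 CPM (92.3 to 97.4). The log2 ratios were 1.46 and 1.80, and 0.98 and 1.503 when depth-weighted. As the mean of the libraries, the ratio of 1.63 became 1.94 with cells ranked by Itga4 alone and 0.89 with Itgb1 alone. It was 0.94 with separate UMI sets and 0.66 with ranking after thinning. Few of the VLA-4 high cells held most of their Mcpt1 UMIs. Of the VLA-4 high cells, 27.4% (24.04 to 30.9) and 23.2% (19.8 to 26.9) had a Mcpt1 UMI, against 18.7% and 14.2% of remaining cells, and at 3000 UMIs the shares were 20.6% and 16.9% against 12.96% and 9.01%. The 67 highest VLA-4 high cells with oil held 89.9% of their Mcpt1 UMIs, and the 56 highest with tamoxifen held 93.3%. This concentration was not measured in remaining cells, so it does not set the VLA-4 high cells apart.

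Its relatives Mcpt2 and Mcpt4 moved the same way. Mcpt2 was at 291 against 128 CPM with oil and 187 against 88.7 CPM with tamoxifen, and Mcpt4 was at 47.7 against 24.7 and 35.04 against 16.7 CPM. Their depth-weighted log2 ratios were 0.73 and 0.76 for Mcpt2 and 0.41 and 0.70 for Mcpt4. Over the last 300 bases of their longest GENCODE transcripts, where 3′ reads fall, Mcpt1 and Mcpt2 were 58.4% identical, Mcpt1 and Mcpt4 35.8%, and Mcpt2 and Mcpt4 37.6%. The 250 bases before the start of Mcpt1 and Mcpt4 are shown because both genes were higher in the same cells, and they were 81.0% identical. They come from RefSeq on GRCm38.p6, chr14:56017714-56017963 on the plus strand for Mcpt1 and chr14:56062311-56062560 on the minus strand for Mcpt4. Capitals mark GATAA, a core of GATA factor motifs, searched on both strands.
Mcpt1: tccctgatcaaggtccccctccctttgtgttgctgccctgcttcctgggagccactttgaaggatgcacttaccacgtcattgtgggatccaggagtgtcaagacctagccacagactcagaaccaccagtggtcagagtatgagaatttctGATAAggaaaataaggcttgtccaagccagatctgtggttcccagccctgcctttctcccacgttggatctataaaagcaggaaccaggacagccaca
Mcpt4: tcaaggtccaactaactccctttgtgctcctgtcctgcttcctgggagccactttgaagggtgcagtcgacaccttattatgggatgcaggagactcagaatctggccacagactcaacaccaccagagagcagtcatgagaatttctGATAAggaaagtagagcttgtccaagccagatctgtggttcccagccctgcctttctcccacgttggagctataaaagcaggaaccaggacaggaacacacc
Each holds 1 match, as do 22.6% of 32851 upstream windows of this length at least once. A match is a description of the letters and not a binding site.

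The wider list of mast cell and basophil genes did not move as a block. Of 17 tested genes, 8 were called higher and none lower, with medians of 0.48 and 0.36, but 0.11 and 0.12 when depth-weighted. Beside the proteases, the calls were Cd200r3, a CD200 receptor family member, the chymase Cma1, the shared cytokine receptor chains Csf2rb and Csf2rb2, and Ms4a2, the β chain of the high-affinity IgE receptor, at 1176 against 820 and 1024 against 780 CPM. When depth-weighted, 4 genes were called higher, namely Mcpt1, Mcpt2, Mcpt4 and Cd200r3, and 1 was called lower, Cpa3. Cma1, Csf2rb, Csf2rb2 and Ms4a2 were not called there. As the mean of the libraries, the list median was 0.84 with cells ranked by Itga4 alone. With Itgb1 alone it was 0.080, where the median of all genes was 0.055. Cpa3, the mast cell carboxypeptidase, did not follow the proteases. It was at 340 against 345 CPM with oil and 257 against 324 CPM with tamoxifen, log2 ratios of -0.02 and -0.33, and -0.53 and -0.77 when depth-weighted. The interval with oil (-0.09 to 0.04) held 0, and the mean ratio turned to 0.77 with cells ranked by Itga4 alone and to 0.070 with cells holding a Mcpt1, Mcpt2 or Mcpt4 UMI left out. Kit, at 0.31 and 0.36, came to 0.02 and 0.10.

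A list of annexins, S100 proteins and genes grouped with them had the highest medians. Crip1, Lgals3 and Emp3 are in this list but are neither annexins nor S100 proteins. Crip1 alone gave 2814 of the summed 6933 CPM in VLA-4 high cells with oil and 3114 of 6139 CPM with tamoxifen. Of 14 tested genes, 7 were called higher and none lower, all 14 were higher in both libraries, and the medians were 0.51 and 0.49, or 0.29 and 0.28 when depth-weighted. S100a6, a small calcium-binding protein, was at 200 CPM (189 to 212) in VLA-4 high cells and 91.8 CPM in remaining cells with oil, and at 151 CPM (141 to 163) and 67.0 CPM with tamoxifen. Its log2 ratios were 1.12 and 1.18, and 0.59 and 0.80 depth-weighted. Few cells carried it, since 24.9% and 18.5% of VLA-4 high cells had a S100a6 UMI, and the 67 highest cells with oil and the 56 highest with tamoxifen held 79.6% and 88.0% of these UMIs. Ahnak, a giant scaffold that binds S100a10 and annexin 2, was at 247 against 129 CPM and 196 against 89.9 CPM. Anxa2 itself was at 147 against 83.1 CPM and 97.8 against 42.2 CPM, and as many VLA-4 high cells held 65.4% and 84.0% of their Anxa2 UMIs. For S100a6 and Anxa2 too, this concentration was not measured in remaining cells. Lgals3, the sugar-binding protein galectin-3, was at 711 against 346 CPM and 491 against 288 CPM, and 60.4% and 48.7% of VLA-4 high cells held a UMI of it at 3000 UMIs, against 42.1% and 38.2% of remaining cells. Depth-weighted log2 ratios were 0.47 and 0.76 for Ahnak, 0.40 and 0.85 for Anxa2, and 0.60 and 0.44 for Lgals3. S100a10, Crip1 and Anxa6 were the other calls, and 5 of the 7 genes were called when depth-weighted. With every cell holding a UMI of Mcpt1, Mcpt2 or Mcpt4 left out, a choice made after the data were seen, 744 VLA-4 high cells were left. The list median, as the mean of the libraries, fell from 0.47 to 0.26, and the mean ratio of S100a6 was 1.25, of Ahnak 0.91 and of Lgals3 0.64. With cells ranked by Itga4 alone the list median was 0.72 and S100a6 was at 1.92, and with Itgb1 alone they were 0.21 and 0.45. The mean ratio of S100a6 was 0.54 with separate UMI sets and 0.33 with ranking after thinning.

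Other integrin chains were higher by less. Besides the chains that chose the cells, 4 reached 20 CPM, 2 of them were called higher, all 4 were higher in both libraries, and the medians were 0.45 and 0.41, or 0.23 and 0.27 depth-weighted, where none was called. With cells ranked by Itgb1 alone the list median was 0.0093, and Itgb7 and Itgal turned to -0.020 and -0.064. Itga6, the α6 chain of laminin receptors, was at 57.4 against 42.3 CPM with oil and 49.6 against 36.2 CPM with tamoxifen. Itga9, which pairs with β1 and also binds VCAM-1, was at 40.2 against 28.2 CPM and 36.3 against 25.9 CPM. The depth-weighted log2 ratios of Itga6 were 0.35 and 0.42 and those of Itga9 were 0.29 and 0.31. Itgb7, the other partner of α4, was at 141 against 103 CPM and 113 against 90.0 CPM, and its log2 ratios of 0.46 and 0.33 came to 0.17 and 0.11 when depth-weighted. Itgal, the α chain of LFA-1, had ratios of 0.22 and 0.37. Among chains at 5 to 20 CPM, Itgav of fibronectin and vitronectin receptors had ratios of 0.47 (0.13 to 0.80) and 0.44 (0.07 to 0.79), and the platelet chain Itga2b had -0.20 (-0.76 to 0.32) and 0.06 (-0.42 to 0.50). Another 8 chains, the myeloid chains Itgam and Itgax among them, had no UMI in VLA-4 high cells of either library. Of these, 3 had none in remaining cells either. VLA-4 high cells hold a small part of all UMIs, so this absence does not set them apart.

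Genes that connect integrins to actin changed in part. Of 27 tested activators and adaptors, 3 were called higher, against 4.64% of all tested genes, with medians of 0.25 and 0.20. None was called when depth-weighted, with medians of 0.10 and 0.12 against 0.07 over all genes. Vcl, vinculin, was at 140 CPM (131 to 150) against 85.4 CPM with oil and 118 CPM (108 to 128) against 80.7 CPM with tamoxifen, log2 ratios of 0.71 and 0.55, and 0.48 and 0.38 depth-weighted. Rassf5, an effector of Rap1 in integrin activation, and Rapgef2, which loads Rap1 with GTP, were the other calls, and Rassf5 turned to -0.16 with cells ranked by Itgb1 alone. Tln1, talin, had ratios of 0.38 and 0.27, and Fermt3, the kindlin of blood cells, had -0.03 and 0.05. Of 48 actin cytoskeleton genes, 5 were called higher, against the same 4.64%. These were vimentin (Vim), which is an intermediate filament protein, the capping protein gene Capg, the scaffold Iqgap1, the kinase Rock2 and the myosin heavy chain Myh9. Depth-weighted, Rock2 and Myh9 were called. Vim was at 3345 against 1938 CPM and 2237 against 1414 CPM, log2 ratios of 0.79 and 0.66, or 0.40 and 0.37 depth-weighted. Vcam1, the ligand gene, was near its floor, with 6 UMIs in VLA-4 high cells with oil and 0 with tamoxifen.

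Receptors of homing and genes of immature cells showed smaller ratios. Of 8 tested homing and niche receptors, none was called higher and Cd24a, a mucin-like adhesion protein, was called lower at 44.8 against 60.6 CPM and 53.4 against 75.4 CPM, also when depth-weighted. Its mean ratio turned to 0.078 with the top 5% of cells and to 0.027 with Itga4 alone. Cd44, the hyaluronan receptor, was at 19.9 against 15.4 CPM and 12.7 against 9.83 CPM, and the interval of its ratio with tamoxifen held 0. Of 18 stem and progenitor genes, 3 were called higher and none lower, with medians of 0.29 and 0.29, or 0.12 and 0.21 depth-weighted, where none was called. Nrip1, a nuclear receptor corepressor, was at 265 against 160 CPM and 205 against 145 CPM, and Myb, a regulator of progenitor growth, was at 233 against 178 CPM and 253 against 193 CPM. Zfp36l2, an RNA-decay factor, was the other call.

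S phase genes were lower, by less once depth was matched, and the median of G2 and mitosis genes changed sign. Of 39 S phase genes, 10 were called lower and none higher, with medians of -0.31 and -0.32, but none was called when depth-weighted, with medians of -0.10 and -0.05. Rrm2, the small subunit of ribonucleotide reductase, was at 52.1 CPM (46.4 to 58.3) in VLA-4 high cells and 92.5 CPM in remaining cells with oil, and at 38.6 CPM (33.2 to 44.6) and 64.8 CPM with tamoxifen. Its log2 ratios of -0.83 and -0.75 came to -0.48 and -0.31 when depth-weighted. Of 45 G2 and mitosis genes, 1 was called lower, the kinetochore gene Nuf2, against 1.35% of all tested genes. The list medians were -0.10 and -0.25, whereas depth-weighting gave 0.17 and 0.05 with 3 called higher. The mean of the libraries was 0.055 when cells were ranked after thinning.

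Globin genes were lower, whereas the erythroid list was mixed. Of 28 erythroid genes, 4 were called lower and none higher, 13 were lower and 8 higher in both libraries, and 2 were called lower when depth-weighted. Hbb-bs, an adult β-globin, was at 1582 against 2367 CPM with oil and 1410 against 2527 CPM with tamoxifen, log2 ratios of -0.58 and -0.84, and -0.69 and -0.91 depth-weighted. Hba-a2, an α-globin, was at 385 against 519 CPM and 652 against 920 CPM. Both have near-identical copies among which reads can be split. Alad and Cpox, enzymes of heme synthesis, were the other calls. In cells chosen by Itga4 alone the mean ratio of Hbb-bs was 0.02, so its direction did not hold there. Ppy, which encodes pancreatic polypeptide, had the lowest ratio of all tested genes in both libraries, at 5.26 CPM (3.57 to 7.47) against 18.3 CPM and 10.4 CPM (7.74 to 13.7) against 26.4 CPM, and depth-weighting left it at -1.80 and -1.32. All 81 tested ribosomal protein genes were lower in both libraries by under 1.3-fold, with medians of -0.18 and -0.12.

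Of 20 type I interferon-stimulated genes, 2 were called higher, Oas3 at 26.3 against 16.2 CPM and 48.4 against 31.3 CPM, and Parp14, with list medians of 0.22 and 0.28, or 0.09 and 0.12 depth-weighted, where both genes were called again. Isg15, the ubiquitin-like protein that USP18 removes from its targets, was lower, at 37.8 against 48.7 CPM with oil and 105 against 114 CPM with tamoxifen, and the interval of the ratio with tamoxifen held 0. Of 15 immediate early genes, Klf2, Klf6 and Fos were called higher, with list medians of 0.23 and 0.27 that came to 0.04 and 0.09 depth-weighted, where none was called. Of 7 NF-kB genes, Nfkb1 and Tnfaip3 were called higher, and neither when depth-weighted. None of 7 inflammasome and pyroptosis genes was called, with list medians of 0.18 and 0.17, or 0.063 and 0.073 depth-weighted. Depth-weighted medians of the immediate early, inflammasome and p53 lists lay near or below that of all genes, 0.07 in both libraries. None of the tested genes of the MHC class I, p53 and platelet lists was called. With 4.64% of all tested genes called higher and 1.35% lower, the absence of calls in such short lists does not set them apart. Of the mitochondrial genes, mt-Nd6 alone was called higher, and in the heat shock list Hspd1 alone was called lower.

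**Figure D4:**
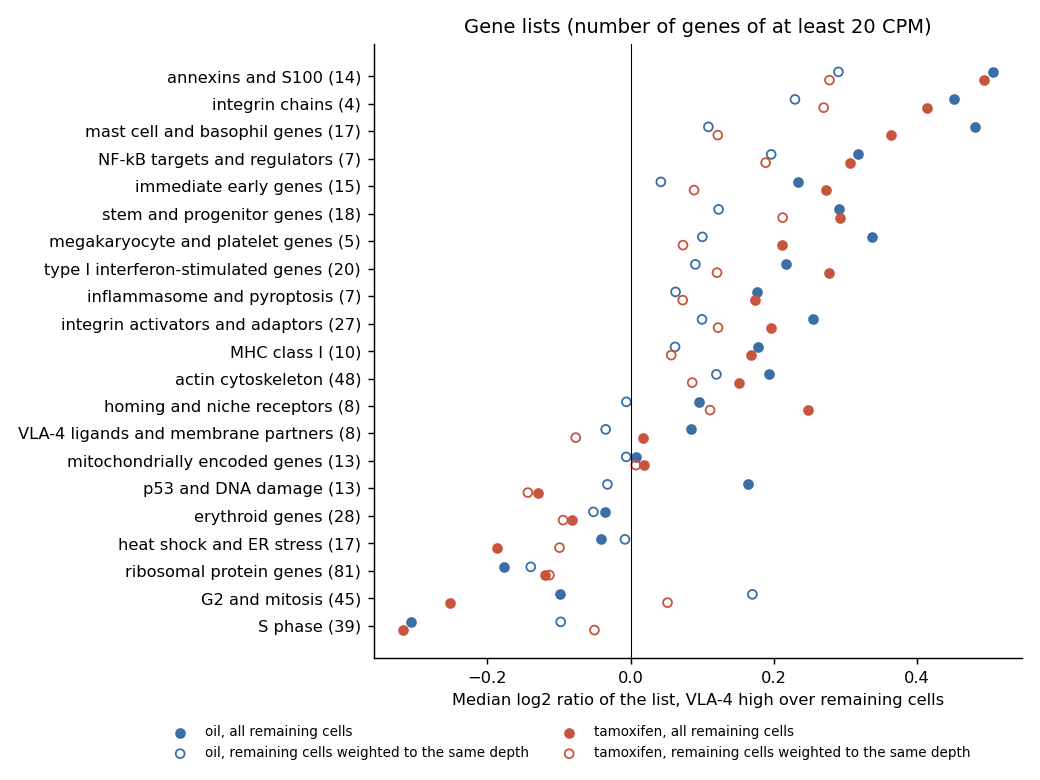
Median log2 ratio of VLA-4 high over remaining cells (horizontal axis) for each gene list (vertical axis, with the number of genes of at least 20 CPM). Filled points use all remaining cells and open points use remaining cells weighted to the same depth, for the libraries labelled oil and tamoxifen. Annexins and S100 stay highest at 0.29 and 0.28 when weighted, and G2 and mitosis crosses 0.

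Levels were next followed along VLA-4. Each kept cell was grouped by its Itga4 plus Itgb1 UMIs among 3000 drawn UMIs, from 0 to 4 or more, a group of 265 cells with oil and 244 with tamoxifen. Thinning set the groups alone, and levels were taken over all UMIs. Cells with 0 and with 4 or more had a mean of 10421 and 8931 UMIs with oil and of 9675 and 10028 UMIs with tamoxifen, so depth was not equal between them. The summed annexin and S100 list, which includes Crip1, Lgals3 and Emp3, was at 4036 CPM in cells with 0 and 7028 CPM in cells with 4 or more with oil. With tamoxifen it was at 4117 and 5057 CPM. Crip1 was not followed alone. Mcpt1 was at 164 and 423 CPM (397 to 450) with oil, and at 87.8 and 237 CPM (218 to 257) with tamoxifen. Lgals3 was at 310 and 735 CPM and at 282 and 381 CPM. The S phase genes gave 3448 and 2791 CPM with oil but 2699 and 2744 CPM with tamoxifen, where cells with 3 UMIs were at 2540 CPM, so no steady order was seen there. Rrm2 was at 99.7 and 57.5 CPM with oil but at 66.2 and 63.8 CPM with tamoxifen, where its intervals overlapped. Erythroid genes were at 11949 and 10599 CPM with oil and at 13861 and 11336 CPM with tamoxifen. Their lowest levels were 10138 CPM at 2 UMIs with oil and 10213 CPM at 3 UMIs with tamoxifen, so the order was not steady.

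**Figure D5:**
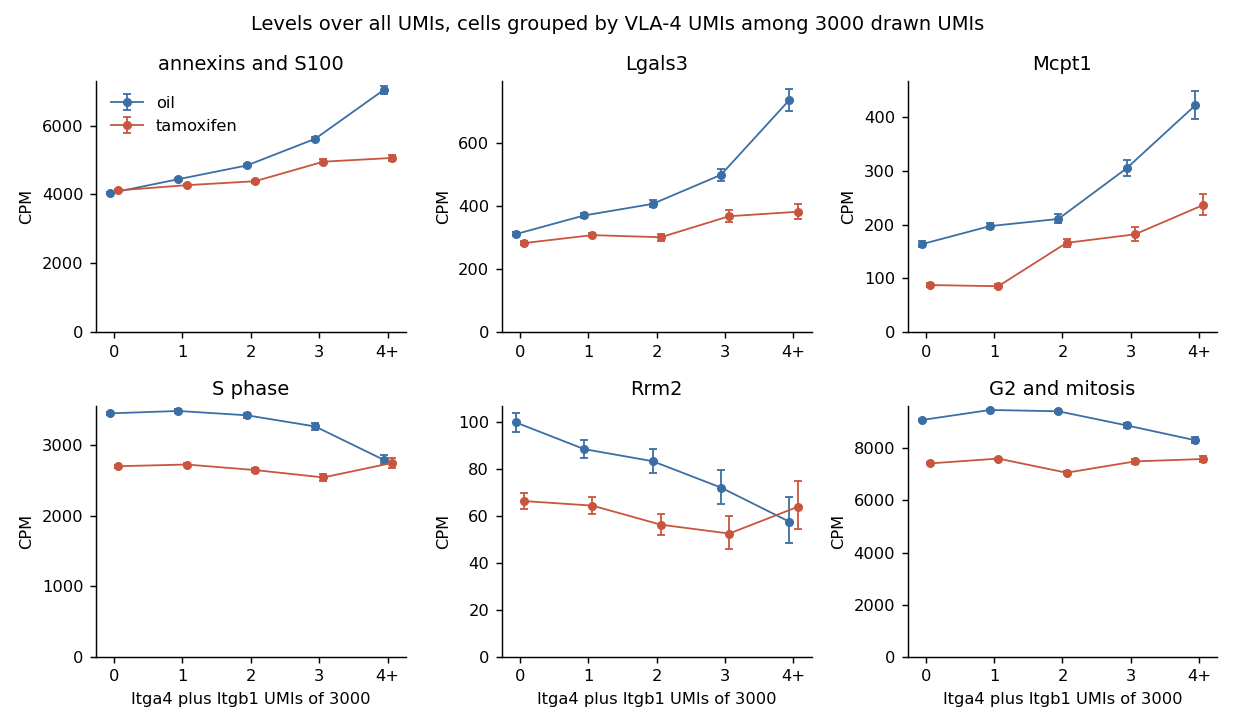
CPM (vertical axes, from 0) of 3 summed gene lists and 3 genes over all UMIs, by the number of Itga4 plus Itgb1 UMIs among 3000 drawn UMIs of each cell (horizontal axes), for the libraries labelled oil and tamoxifen, with 95% counting intervals. The annexin list, Lgals3 and Mcpt1 are higher at 4 or more UMIs than at 0 in both libraries, whereas S phase genes and Rrm2 are lower in the library labelled oil.

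The VLA-4 high cells were then compared between the libraries. Of 5839 genes, 66 (1.13%) were at least 1.5-fold higher and 148 (2.53%) at least 1.5-fold lower in VLA-4 high cells of the library labelled tamoxifen than in those labelled oil, and in remaining cells 47 were higher and 33 lower by that fold. Among these, 38 of the 47 were also in the 66 and 23 of the 33 in the 148. VLA-4 high cells held 5891836 of 65087189 kept UMIs with oil and 4794553 of 59924877 with tamoxifen. Counting error is therefore larger in them, and the counts of the 2 sets of cells are not to be compared. Over all genes the median ratio was -0.086 in VLA-4 high and -0.085 in remaining cells. The 5th and 95th percentiles were -0.49 and 0.34 in VLA-4 high and -0.39 and 0.27 in remaining cells. Itga4 had a log2 ratio of -0.04 (-0.12 to 0.04) and Itgb1 of -0.01 (-0.10 to 0.08), which the joint ranking kept alike. Among the highest ratios were those of Isg15, at 1.47 (1.24 to 1.71) against 1.23 in remaining cells, the Rh-associated membrane protein gene Rhag at 1.10 against 1.06, the E3 ligase gene Rnf213 at 1.04 against 0.60, Ppy at 0.99 (0.31 to 1.68) against 0.52, and Rps27rt at 1.33 against 0.84. The ratio of Ppy turned to -1.03 with ranking after thinning and to -0.20 with separate UMI sets. Rps27rt is a retrogene that shares reads with Rps27 and is uncertain. Genes picked for a high ratio in VLA-4 high cells tend to a lower one in remaining cells by that choice. Usp18 had a ratio of 1.49 (0.97 to 2.03), against 1.47 in remaining cells.

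The interferon list was higher and cell cycle and early response genes were lower in VLA-4 high cells of the library labelled tamoxifen. Of 20 interferon-stimulated genes, 6 were at least 1.5-fold higher, with a median of 0.35 against 0.30 in remaining cells and -0.09 over all genes in VLA-4 high cells. Of 15 immediate early genes, 7 were at least 1.5-fold lower, with a median of -0.52 against -0.49. Jun was at 454 CPM with oil and 205 CPM with tamoxifen, a ratio of -1.14 (-1.25 to -1.04), and Fosb was at 90.5 and 31.1 CPM, a ratio of -1.54 (-1.81 to -1.28). The phosphatase gene Dusp1 had a ratio of -1.40 and the histone gene Hist1h2ac of -1.10. Of 45 G2 and mitosis genes, 16 were lower, with a median of -0.47 against -0.35 in remaining cells, and of 39 S phase genes 7 were lower. Of 81 ribosomal protein genes, 14 were higher. Over all tested genes the shares past this fold were 1.13% higher and 2.53% lower.

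Ratios of tamoxifen over oil were also compared between VLA-4 high and remaining cells. The interval of the difference lay on 1 side of 0 for 680 of 5839 genes. Among so many genes some intervals do so by chance, and how many was not estimated. The intervals also treat UMIs as independent and leave out variation between cells. Anxa2 had a ratio of -0.58 in VLA-4 high and -0.98 in remaining cells, a difference of 0.40 (0.22 to 0.57), and Mcpt1 had -0.56 and -0.90. The 56 highest VLA-4 high cells with tamoxifen held 84.0% of Anxa2 and 93.3% of Mcpt1 UMIs. The 67 highest with oil held 65.4% and 89.9%. Whether such cells set these differences was not tested. Heatr1, a factor of ribosome assembly, had -1.11 and -0.23, a difference of -0.88 (-1.33 to -0.43). The chromosomal passenger genes Birc5 and Aurkb had differences of -0.37 and -0.51, and the cytokine gene Mif, at 49.4 and 21.5 CPM in VLA-4 high cells, had -0.51. Hbb-bs had -0.17 in VLA-4 high and 0.09 in remaining cells. Genes were named by ratios of VLA-4 high cells, and the levels behind them enter these differences too. A gene picked for a low ratio there, such as Heatr1 or Mif, tends to a milder one in remaining cells by that choice. The differences are thus a description and not a result. Pools of mice, depth and injection move together between the libraries, so they cannot be told apart.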

How the data were processed

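The authors sorted spleen cells, prepared libraries with the 10x Chromium 3′ V3 kit, and mapped reads to mm10 with Cell Ranger 3.0.2. Seurat is also named in the submitters' processing notes. The deposited files hold UMI counts per gene and barcode (31053 genes), with no normalization, and 30934 gene identifiers were found in GENCODE M21 on GRCm38. Here barcodes were filtered as stated above, counts were summed per library and set of cells, and CPM were given exact Poisson, ratios exact conditional binomial and shares exact Clopper-Pearson intervals (95%). The interval of a difference of 2 log2 ratios is a normal approximation. Depth-weighting matched remaining cells to VLA-4 high cells in 10 UMI deciles. Doublets were not called, and 1 alternative dropped the deepest 6% of cells in each library. No test was made with 1 library per group. The cells, gene lists and thresholds were chosen with earlier results of these data known. Genes named by rule are the 12 highest and 12 lowest by the smaller ratio of the libraries, integrin chains of at least 5 CPM, the top 2 and bottom 2 per list, the 6 highest and 6 lowest of tamoxifen over oil, and Itga4, Itgb1, Kit, Cd34, Cd44, Cxcr4, Vcam1, Usp18 and Isg15. Other members of lists were named as calls or for their role, after their values were seen. Alternatives changed the ranking, cell filters, scaling and count minimum. Ratio and interval steps were tested on simulated counts. Software comprised edgeR 4.0.16 (TMM) in R 4.3.3, and pandas 2.3.3, scipy 1.17.1, Biopython 1.88, matplotlib 3.10.9 and numpy 2.4.6 in Python 3.11.15. A few genes that the naming rule selects are not reported here.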

Additional observations from a re-analysis of the deposited data

Results flagged for a closer look

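Barcodes that failed only the minimum depth held VLA-4 transcripts above the level in kept cells. The 508 barcodes of the library labelled oil and 345 of the library labelled tamoxifen that failed only the minimum of 3000 UMIs had 532.08 CPM (487 to 580) and 443.93 CPM (397 to 495) from Itga4 plus Itgb1, against 377 and 360 CPM in kept cells. Their median depth was 1930 and 2351 UMIs, and 74 and 47 of them held a UMI of both genes. Barcodes under 500 genes were at 329 and 217.5 CPM, and those that failed only the mitochondrial limit were at 403 and 369 CPM. None of these barcodes entered a comparison, and what they hold was not tested.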

How the results depend on the processing

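Counts of genes moved most. Of alternatives that changed a count by over 1.5 times, the 271 genes higher in VLA-4 high cells became 5 with ranking after thinning to 3000 UMIs, 776 with the top 5%, 16 with the top 20%, 883 with Itga4 alone, 9 with Itgb1 alone, 30 with separate UMI sets, 777 with at most 5% mitochondrial UMIs and 1000 genes, 157 with leaving out Mcpt cells, 46 with depth-weighting, 132 with equal weight per cell, 57 with TMM scaling, 149 with totals without mitochondrial and ribosomal genes, 136 with at least 50 CPM, 491 with at least 5 CPM. The 79 lower genes became 1 with ranking after thinning to 3000 UMIs, 123 with taking the top 10% before asking for both genes, 357 with the top 5%, 4 with the top 20%, 557 with Itga4 alone, 9 with Itgb1 alone, 21 with separate UMI sets, 289 with at most 5% mitochondrial UMIs and 1000 genes, 52 with leaving out the deepest 6%, 50 with leaving out Mcpt cells, 9 with depth-weighting, 356 with TMM scaling, 140 with totals without mitochondrial and ribosomal genes, 44 with at least 50 CPM, 141 with at least 5 CPM. The 66 genes higher with tamoxifen became 626 with at most 5% mitochondrial UMIs and 1000 genes, 104 with totals without mitochondrial and ribosomal genes, 36 with at least 50 CPM, 205 with at least 5 CPM. The 148 lower became 89 with ranking after thinning to 3000 UMIs, 290 with the top 5%, 76 with the top 20%, 242 with Itga4 alone, 95 with Itgb1 alone, 915 with at most 5% mitochondrial UMIs and 1000 genes, 290 with leaving out Mcpt cells, 95 with totals without mitochondrial and ribosomal genes, 68 with at least 50 CPM, 339 with at least 5 CPM. The log2 ratio of shares lay between -0.46 and -0.15, with -0.46 among the 122 cells left at 5% mitochondrial UMIs. Directions turned as follows, as the mean log2 ratio of both libraries unless tamoxifen over oil is named. With Itgb1 alone these were Rassf5 -0.16, Itgb7 -0.020, Itgal -0.064, Tspan32 -0.074, Fli1 -0.044, Jun -0.055, Slc7a5 0.086, Birc5 0.040, Hist1h1a 0.073, the median of S phase 0.049. With separate UMI sets these were Rhag -0.068, Sesn1 -0.13, Gsdme -0.028, Tspan32 -0.0048, Casp8ap2 -0.024, Ppy tamoxifen over oil -0.20. With ranking after thinning to 3000 UMIs these were Kit -0.023, Fosb -0.031, Jun -0.0061, mt-Nd2 0.0098, mt-Nd3 0.0014, Aurkb 0.041, Ppy tamoxifen over oil -1.03, the median of immediate early genes -0.0061. With TMM scaling these were Dnajb1 -0.029, Casp8ap2 -0.039. With Itga4 alone these were Casp8ap2 -0.052, Rps27 0.013, Cpa3 0.77, Isg15 0.056, Cd24a 0.027, Hbb-bs 0.021. With leaving out Mcpt cells these were Cpa3 0.070. With the top 5% these were Isg15 0.015, Cd24a 0.078. With at most 5% mitochondrial UMIs and 1000 genes these were Cd44 tamoxifen over oil 0.54. The cause of these changes was not tested. Leaving out Mcpt cells was added once the data had been seen. Vcam1, Cd34 and Cxcr4, at 0 in a set of cells, gave no ratio. No paired analysis was possible because there was a single pool for each injection. With a median of 4 Itga4 and 3 Itgb1 UMIs per chosen cell, the ranking of single cells is limited by depth, and differences between the libraries have no replicate check.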
